A study of Mus musculus with 336 samples.

Results

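Matrix proteases and their inhibitors were taken as all genes whose symbols name a matrix metalloproteinase (Mmp), a tissue inhibitor of metalloproteinases (Timp), an ADAM, an ADAMTS or an ADAMTS-like protein. The symbols matched 84 genes present in all 3 deposited tables, of 47633, 47632 and 47631 gene entries. They were 33 Adam, 19 Adamts, 5 Adamtsl, 23 Mmp and 4 Timp genes. A mean of 0.5 FPKM or more (fragments per kilobase of transcript, a level per gene length and library size) was reached by 44 of them in skin fibroblasts, 39 in cultured liver slices and 31 in the short liver course. It was reached in every table by 26 genes, in at least 1 by 49, and in none by 35.

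Mmp enzymes are zinc proteases that are secreted or held at the cell surface as inactive precursors and, once activated, cut collagens, laminins, elastin, proteoglycans and other proteases. ADAM proteins sit in the cell membrane and release the outer parts of other membrane proteins, and ADAMTS proteins are their secreted relatives that process procollagen and proteoglycans. Timp proteins block the active sites of these enzymes, and in liver the balance of proteases and Timps is known for its part in the turnover of scar matrix made by stellate cells and fibroblasts.

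All samples came from C57BL/6 mice and were either WT or Bmal1-/-, called KO here, which lack the clock transcription factor Bmal1 (gene Arntl). Mouse skin fibroblasts (MSF) were grown to confluence, and adult liver was cut into slices kept on membranes. Both were treated in both genotypes with 100 nM dexamethasone, a glucocorticoid used to set the clocks of cultured cells, for 15 min. Harvest started 48 h later and went on every 3 h for 3 days, giving 24 labelled times from CT00 to CT69 with 1 FPKM value per genotype and time. The short course was labelled mouse liver, and its labels carry the same slicing and dexamethasone protocols. It had 3 samples per genotype at T00, T06, T12 and T24, 12 per genotype. The labels give no age for it and do not state what T00 is.

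The gene-level Arntl value was 10.6 ± 0.754 FPKM in WT and 6.84 ± 0.557 in KO fibroblasts (SD, n = 24 each), but 4.50 and 4.09 in slices and 1.45 and 2.31 in the short liver samples. A level summed over the gene cannot show a deleted exon. Totals per library were 801247 to 867953 FPKM in fibroblasts, 766546 to 2.12e+06 in slices and, for the short course, 479770 to 1.01e+06, and read depth is unknown because the files hold no counts. The median rank correlation of a library with the others of its genotype in the same table was 0.907 to 0.934 in fibroblasts, 0.858 to 0.938 in slices and, for the short course, 0.793 to 0.905. The 6 lowest slice libraries were KO CT09, CT27, CT39 and CT42 and WT CT66 and CT69. Albumin (Alb) was listed at 0 in 5 WT and 1 KO libraries of the short course and in 1 WT slice library, while the sum of 8 hepatocyte markers was 1169 FPKM or more in every slice library and 5473 or more in the short course. In fibroblasts that sum was 0.743 FPKM or less, and the sum of 10 fibroblast markers was 6382 or more. Col3a1, a gene of the fibroblast list, was listed at 0 in WT CT48 and in KO CT03, CT12, CT21, CT36 and CT60, and at 5383 FPKM or more in every other fibroblast library. WT and KO fibroblast libraries, and WT and KO slice libraries, ran in separate lanes, so genotype and lane cannot be told apart in the long courses. Each genotype of fibroblast is 1 labelled culture, and the labels do not say that samples of a group came from separate animals. The p-values therefore rest only on how much these samples vary, some of which may be technical, and treat successive time points as independent.

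Of the 84 genes, 10 Mmp genes lie side by side on chromosome 9 (GRCm38, chr9:7272514-7699585), a stretch of 427 kb. In the 250 bases before the start sites of 8 of the 10 the letters TGANTCA occur, with any base taken at the N. This pattern includes the binding site of AP-1 (the Fos and Jun family, known inducers of Mmp genes) and reads the same on both strands apart from the N. The matches printed below are TGACTCA or TGAGTCA, and the counts and shares may take in other bases at the N. Mmp8 and Mmp27 have no match in that window. The first base of the match lay 35 to 95 bases before the start. The share of all RefSeq promoter windows of that length with the letters was 6.75% of 32851, or 7.82% of 27025 genes, and 12 of the 53 protease and inhibitor genes with a window held them. Mmp13, Mmp12, Mmp3 and Mmp7, cluster genes whose values are described here, are shown as the 100 bases before the start (RefSeq, GRCm38.p6, plus strand, 5′ to 3′), with the match in capitals. They are chr9:7272414-7272513 for Mmp13, chr9:7347274-7347373 for Mmp12, chr9:7445722-7445821 for Mmp3 and chr9:7691990-7692089 for Mmp7. The Mmp12 sequence belongs to the downstream of its annotated start sites.
Mmp13: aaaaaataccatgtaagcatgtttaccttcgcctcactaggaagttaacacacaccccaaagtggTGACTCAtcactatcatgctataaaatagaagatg
Mmp12: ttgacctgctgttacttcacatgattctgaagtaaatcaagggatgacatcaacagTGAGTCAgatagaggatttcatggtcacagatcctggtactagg
Mmp3: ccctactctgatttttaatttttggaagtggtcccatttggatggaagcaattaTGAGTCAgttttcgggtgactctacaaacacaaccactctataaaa
Mmp7: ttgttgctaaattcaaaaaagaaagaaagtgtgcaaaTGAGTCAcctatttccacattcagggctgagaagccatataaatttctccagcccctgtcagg
A match describes letters and is not evidence that a factor binds. The clock motif CACGTG (the E-box bound by Bmal1 with its partner Clock) was found in 5 windows, those of Adam10, Adam19, Adam6a, Adamts17 and Mmp7, against 6.86% of all genes. The D-box letters TTANNTAA were found in 6, against 6.3% of all genes.

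In fibroblasts the first question was which proteases and inhibitors differ between the genotypes over the 3 days. A difference was called at an adjusted p under 0.05 in limma and a size of at least 1 on the scale of log2(FPKM + 1). Of the 44 genes, 8 were lower in KO, where 9.2% of 16896 genes were, and 5 were higher, where 5.81% were. The median KO minus WT difference was 0.19 over the 44 genes and -0.02 over all genes. At an unadjusted p under 0.05 there were 41 of the 44 and 13552 of all genes, so with 24 libraries a group it was the size limit and not the p that set the calls. WT and KO libraries did not overlap at all for 14 genes higher in KO (13.6% of all genes) and 8 lower (19.8%).

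The gelatinases moved apart. Mmp9 (chr2:164940780-164955850, plus strand), a secreted enzyme that digests denatured collagen and basement membrane collagen, had a lowest, median and highest value of 20.9, 30.2 and 39.4 FPKM in WT and 0.844, 1.90 and 3.37 in KO. Every KO library was below every WT library, and the WT mean was 16.9-fold above the KO mean. The difference was -3.51 ± 0.058 (SE, adjusted p 9.74e-41), the most negative of the 44. Mmp2, the other gelatinase, went from 324, 355 and 401 FPKM in WT to 424, 589 and 681 in KO, with no overlap and a difference of 0.66, below the size limit.

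Both stromelysins measured were lower in KO. Mmp3, which cuts many matrix proteins and activates other Mmp precursors, stood at 9.83, 31.8 and 55.1 FPKM in WT and 2.58, 6.05 and 8.62 in KO. The groups did not overlap, and the difference was -2.21 ± 0.054 (adjusted p 3.49e-34). Mmp11, a stromelysin that leaves the cell already activated, had 27, 54.1 and 76.8 FPKM in WT and 8.58, 16.8 and 28.7 in KO, so the highest KO library passed the lowest WT library. Its difference was -1.49 ± 0.064 (adjusted p 7.13e-25).

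Among the membrane-type enzymes Mmp14, which cuts collagen at the cell surface and activates Mmp2 together with Timp2, had 258, 283 and 338 FPKM in WT and 475, 581 and 666 in KO. Every KO library was above every WT library, but the difference of 0.98 lay just under the limit, and it was called once libraries were rescaled to a common median ratio. Mmp16 was lower in KO by the call (-1.10 ± 0.054, adjusted p 1.55e-22), with 4.13, 6.21 and 8.81 FPKM in WT against 1.00, 2.12 and 4.57 and an overlap of 1 KO library. Without the third day its difference was -0.90, under the limit.

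**Figure D1:**
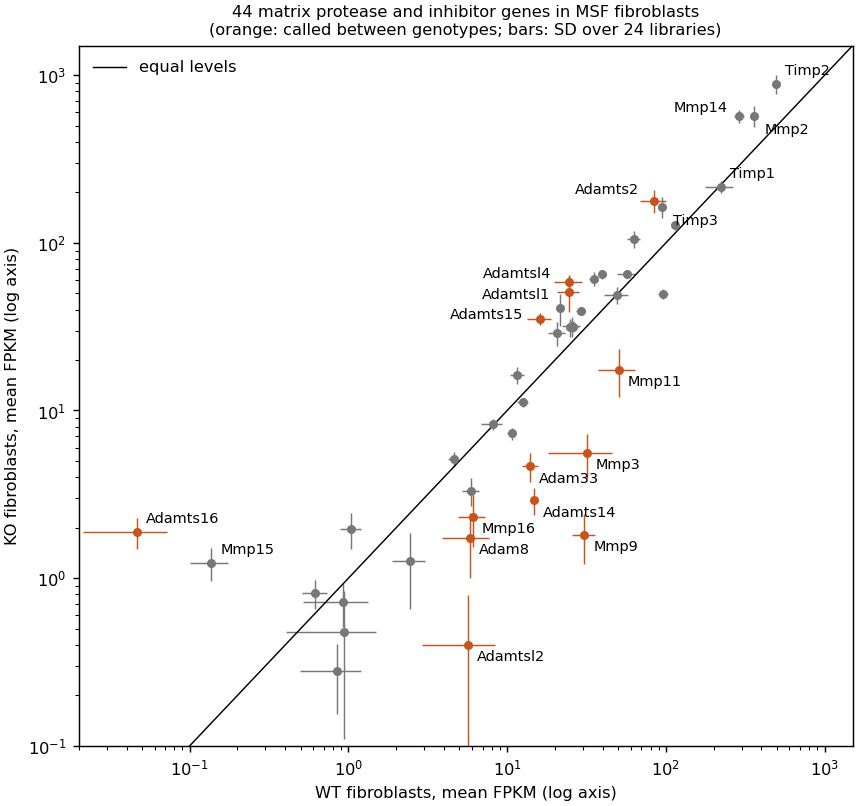
Mean FPKM of the 44 genes in 24 WT (x axis) and 24 KO (y axis) fibroblast libraries, both on log axes, with bars for the SD and orange points for called genes. Mmp9, Mmp3, Adamts14 and Adamtsl2 lie farthest below the line of equal levels, and Timp2, Mmp14 and Mmp2 at the top lie above it.

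The procollagen N-proteinases, which trim fibrillar procollagen so that fibrils can form, were called in opposite directions. Adamts14 had 13.2, 14.9 and 16.2 FPKM in WT and 1.96, 2.83 and 4.28 in KO, a difference of -2.03 ± 0.027 (adjusted p 3.40e-44). Adamts2, the more abundant of the pair, had 50.6, 90.4 and 103 FPKM in WT and 125, 179 and 226 in KO, a difference of 1.08 ± 0.025 (adjusted p 7.52e-35). Neither gene had overlapping groups.

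Of the 5 proteoglycanases tested, the ADAMTS enzymes that cut versican and aggrecan, Adamts15 alone was called. It had 8.44, 17.1 and 19.1 FPKM in WT and 31.5, 34.8 and 40.7 in KO, with no overlap and a difference of 1.10 ± 0.044 (adjusted p 4.07e-26). Adamts1 and Adamts5 were at 0.69 and 0.85, under the limit. Adamts16 was close to 0 in WT (0.00897, 0.0392 and 0.104 FPKM) and at 1.10, 1.98 and 2.48 in KO, a difference of 1.45 ± 0.025 (adjusted p 3.52e-40).

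ADAMTS-like proteins have no protease domain, and several bind fibrillin microfibrils. Adamtsl4 was higher in KO, at 15.3, 23.5 and 34.1 FPKM in WT and 46.8, 58.7 and 70 in KO (1.23 ± 0.057, adjusted p 1.30e-23), without overlap. Adamtsl1 was called higher with a difference of 1.01, at the edge of the limit. Adamtsl2 went the other way, with 1.81, 5.53 and 9.90 FPKM in WT and 0.0298, 0.225 and 1.42 in KO, a difference of -2.16 ± 0.057 (adjusted p 9.09e-33) with no overlap.

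In fibroblasts 5 members averaged under 0.5 FPKM in 1 genotype, namely Adam32, Adamts16, Adamtsl2, Mmp15 and Mmp17, and entered the comparison through the other genotype. The calls of Adamts16 and Adamtsl2 therefore follow in part from how the genes entered. Just inside the limit of 0.5 FPKM were Mmp17 at 0.564 and Mmp15 at 0.687, and just outside were Adamts17 at 0.495 and Adam11 at 0.445.

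Among the ADAM genes, 9 with and 4 without the zinc-binding motif of the catalytic site were tested, and 2 of those with it were called, both lower in KO. Adam33 had 10.5, 13.6 and 17.2 FPKM in WT and 3.39, 4.44 and 7.18 in KO (-1.42 ± 0.044, adjusted p 3.02e-30). Adam8, a sheddase best known from leukocytes, had 3.45, 5.30 and 13 FPKM in WT and 0.732, 1.78 and 3.43 in KO (-1.32 ± 0.099, adjusted p 3.50e-16). The groups of both genes stood apart. Summed macrophage markers were 0.838 to 2.35 FPKM in WT and 1.24 to 2.78 in KO fibroblasts, and Adgre1, Marco and all 3 C1q genes were at 0 in every WT library.

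Inhibitors were among the most abundant members. The highest mean levels were Timp2 at 692 FPKM, Mmp2 at 466 and Mmp14 at 430, and the KO libraries of these 3 lay above all WT libraries. Timp2 had 467, 499 and 517 FPKM in WT and 666, 902 and 1088 in KO, a difference of 0.82 ± 0.014 (adjusted p 3.28e-40). Timp3, which binds to matrix and also blocks several ADAM and ADAMTS enzymes, had 87.9, 94.6 and 103 FPKM in WT and 130, 166 and 206 in KO (0.77 ± 0.020, adjusted p 3.82e-33). Both had no overlap but stayed under the size limit.

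Timp1 (chrX:20870166-20874735) had 158, 216 and 294 FPKM in WT and 182, 218 and 246 in KO. The groups overlapped, and the difference over the 3 days was -0.01 ± 0.016 (adjusted p 0.693). It became 0.040 after rescaling and 0.22 (adjusted p 1.67e-11) without the first day. Its values over the days differed between the genotypes. WT went from 243, 273 and 294 FPKM on day 1 to 158, 176 and 183 on day 3, and KO from 182, 199 and 208 to 221, 231 and 246. The day ranges within each genotype did not overlap. The change was -0.65 in WT and 0.23 in KO, and its difference, KO minus WT, was 0.88 ± 0.047 (adjusted p 5.92e-18), under the size limit of 1. Timp1 lies inside Syn1, Timp3 inside Syn3 and Timp4 inside Syn2, each on the opposite strand. The strand setting of the counting is not given in the sources used here, so reads of each pair may not be told apart.

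Change from day 1 to day 3 was the next comparison. In WT fibroblasts 2 members rose, where 0.314% of genes did, and 0 fell, where 0.118% did, while 27 had an unadjusted p under 0.05 in limma. Mmp3 rose from 9.83, 16.2 and 23.4 FPKM on day 1 to 42.8, 46 and 55.1 on day 3 (1.56 ± 0.094, adjusted p 9.71e-17), and the days did not overlap. Adamtsl2 rose from 1.81, 2.95 and 3.85 FPKM to 6.43, 8.54 and 9.90 (1.33 ± 0.122, adjusted p 1.30e-11), again without overlap.

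In KO fibroblasts 0 members were called higher and 0 lower, each against 0.189% of genes, with 32 at an unadjusted p under 0.05. KO Mmp3 nevertheless stood at 2.58, 3.46 and 4.96 FPKM on day 1 and 6.18, 6.96 and 8.62 on day 3, a difference of 0.79 under the limit. For the difference between genotypes in the day change, 0 members were called, where 0.225% of genes were higher and 0.42% lower, with 30 at an unadjusted p under 0.05. Its value was -0.77 for Mmp3 (adjusted p 1.51e-05) and -0.92 for Mmp9 (adjusted p 2.73e-06), which was chosen after its values were seen and went from a median of 25.4 to 35.5 FPKM in WT and from 2.17 to 1.15 in KO.

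**Figure D2:**
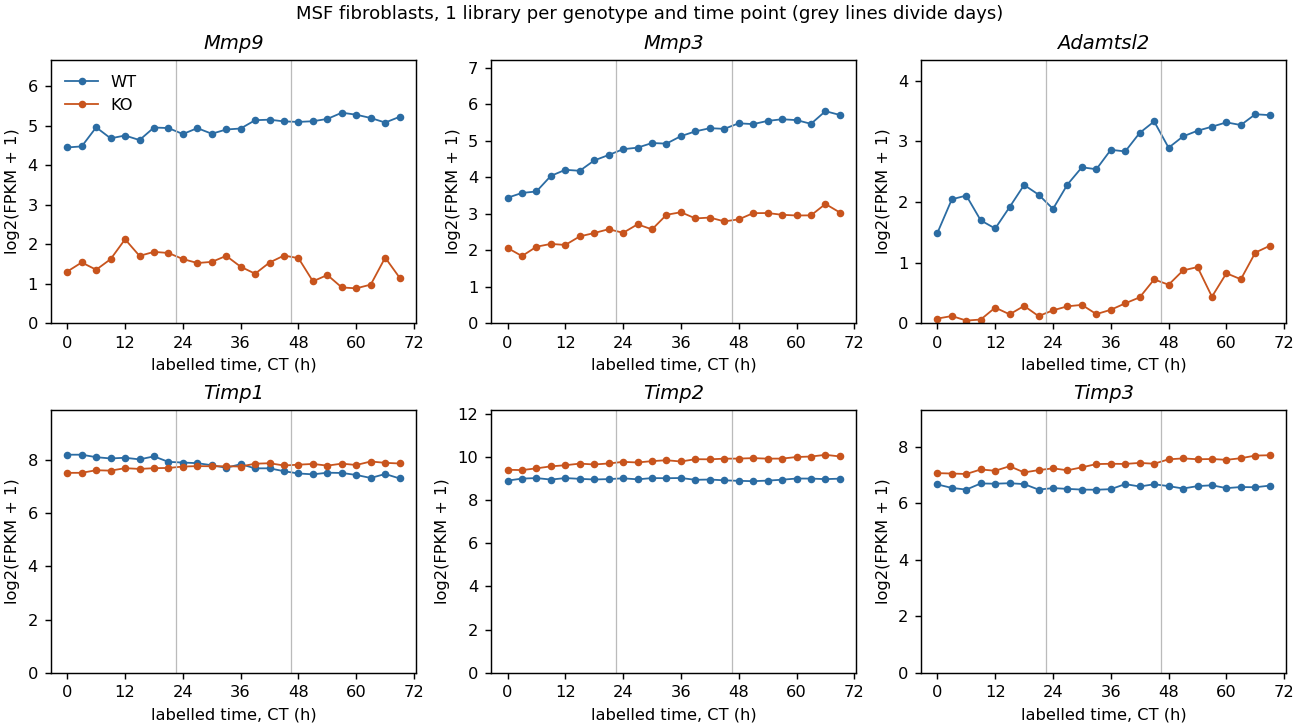
log2(FPKM + 1) of 6 genes against labelled time in h in WT (blue) and KO (orange) fibroblasts, 1 library per point, with grey lines between days. Mmp9, Mmp3 and Adamtsl2 stay lower in KO throughout, Timp2 and Timp3 stay higher, and the Timp1 lines cross in the second day.

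No 24 h rhythm of a member was called in fibroblasts by the main fit. A rhythm was a 24 h wave beside a linear trend, called at an adjusted p under 0.05 by limma's F test. The count was 0 of 44 in WT, where 0.0592% of genes were called, 0 in KO (0.00592% of genes) and 0 for the difference of waves (0.00592% of genes). At an unadjusted p under 0.05 there were 6, 5 and 3 members. The absence of calls depended on the fit, since with day as a factor in place of the linear trend some members were called in each comparison.

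Cell type markers differed between the fibroblast genotypes as well. The summed FPKM of stellate and smooth muscle markers, several of which fibroblasts also make, was 346 to 437 in WT (median 384) and 140.1 to 233 in KO (median 195). That of biliary markers was 614 to 928 in WT (median 701) and 79.7 to 179.6 in KO (median 113), that of keratinocyte markers 9.11 to 15.01 (median 12.5) and 1.005 to 2.04 (median 1.58), and that of endothelial markers 6.72 to 13.2 (median 11.3) and 2.21 to 4.75 (median 2.82). None of these 4 sums overlapped between the genotypes. Of 7 fibroblast markers tested 3 were lower and 1 higher in KO, with a median difference of -0.68. Of 3 biliary markers tested 1 was lower and 1 higher in KO, with a median difference of 0.35, so their sum does not stand for the whole list. Lower in KO were 3 of 4 stellate and smooth muscle, 1 of 2 keratinocyte and 1 of 2 endothelial markers tested, and 0 of these were higher. The part of these markers' cells in the protease differences was not tested.

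Other genes of the pathway also differed between the fibroblast genotypes, where 9.2% of all genes were called lower in KO and 5.81% higher. Of 20 activators and controls tested, 6 were lower in KO, among them the serine protease Htra1 at -2.48 and Plau (urokinase, which makes plasmin that activates Mmp precursors) at -1.11, and 3 were higher, namely Tll1 at 1.38, Fap at 1.26 and Pcsk5 at 1.07. Of 11 matrix substrates Dcn (decorin) was higher at 1.86, and 4 were lower, with Tnc (tenascin C) at -3.14, Fbn1 (fibrillin) at -1.53, Nid1 at -1.25 and Vcan (versican) at -1.18. Of 10 AP-1 and ETS factors Fos was higher at 1.55, and Fosl1, Ets1 and Atf3 were lower at -2.36, -1.61 and -1.27.

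In cultured liver slices the same comparison gave calls in 1 direction. Of 39 members 7 were lower in KO, where 3.58% of 16493 genes were, and 0 were higher, where 1.05% were, with 34 members and 11747 genes at an unadjusted p under 0.05 in limma. The median difference was -0.63 over the members and -0.31 over all genes, and 35 of the 39 estimates were below 0. Rescaling to a common median ratio moved the median of all genes to 0.00 and that of the members to -0.28. It turned the split of all genes from 173 higher and 591 lower into 306 higher and 212 lower. The members then gave 5 lower calls, losing Adamtsl4 at -0.86 and Mmp11 at -0.74, and 1 higher call, Adam32 at 1.01. No member had separate groups, where 0.0121% of all genes did with KO higher and 2.06% with KO lower.

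Timp1, a broad inhibitor of secreted Mmp enzymes, had a lowest, median and highest value of 50.2, 99.5 and 250 FPKM in WT slices and 5.75, 26.2 and 258 in KO slices. Of the 24 KO libraries 22 were below the lowest WT library, and 1, CT27, was above the highest. The difference was -2.10 ± 0.207 (adjusted p 7.74e-12), and -1.71 after rescaling. Timp2 and Timp3 had differences of -0.63 (adjusted p 0.00401) and -0.48 (adjusted p 0.00735), under the size limit, and of -0.25 and -0.12 after rescaling.

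Matrilysin and metalloelastase were lower in KO. Mmp12, an elastase made mainly by macrophages, had 2.05, 10.9 and 73.8 FPKM in WT and 0.664, 3.52 and 9.59 in KO (-1.43 ± 0.199, adjusted p 3.06e-08). Mmp12 overlaps the end of Mmp1b in the annotation. Mmp7, a small Mmp made by epithelia, had 3.19, 20.6 and 294 FPKM in WT and 0.125, 4.69 and 209 in KO (-1.71 ± 0.373, adjusted p 9.12e-05). Without the third day the Mmp7 difference was -0.71 (adjusted p 0.227) and its call was lost.

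The stromelysin Mmp11 had 5.62, 16.9 and 29.6 FPKM in WT and 0, 9.33 and 67.7 in KO (-1.08 ± 0.269, adjusted p 5.06e-04), with KO libraries both below and above all of WT. It fell under the limit without the first day, at -0.97, and without the 6 libraries of low correlation, at -0.83. Adam8 had 14.3, 44.8 and 127 FPKM in WT and 1.90, 13.5 and 29.3 in KO (-1.67 ± 0.168, adjusted p 1.40e-11), with 14 KO libraries below all of WT.

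Both ADAMTS-like genes called were lower. Adamtsl5 had 4.16, 12.3 and 20.6 FPKM in WT and 1.13, 3.15 and 7.34 in KO (-1.55 ± 0.145, adjusted p 2.00e-12), with 18 KO libraries below all of WT. Adamtsl4, which was higher in KO fibroblasts, had 18, 29.7 and 49.3 FPKM in WT slices and 0.973, 12.3 and 37.4 in KO slices (-1.23 ± 0.187, adjusted p 2.24e-07). The tables were normalized separately, so these differences were not set against each other in a test. Just inside the limit of 0.5 FPKM in slices were Mmp13 at 0.632, which averaged under it in KO, and Adamts14 at 0.748, and just outside were Adam22 at 0.474 and Adamtsl1 at 0.461. The highest mean levels in slices were Adam15 at 115 FPKM, Timp1 at 76.0 and Mmp14 at 54.4.

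Macrophage and fibroblast markers were also lower in KO slices. The sum of 10 macrophage and Kupffer cell markers was 213 to 5694 FPKM in WT slices, with a median of 1059, and 72.9 to 520 in KO, with a median of 180, and all 10 were called lower in KO. The sum of 10 fibroblast markers was 104 to 571 FPKM in WT (median 191) and 15.9 to 1315 in KO (median 47.4), with 6 called lower. None of either list was at 0 in all libraries of a genotype. Of 8 hepatocyte markers 2 were higher and 1 lower in KO, with a median difference of 0.53, and 1 of 5 biliary markers was lower. The median difference was -0.21 over 8 stellate and smooth muscle markers, -0.51 over 8 endothelial, -0.54 over 3 neutrophil and -0.16 over 3 keratinocyte markers and -0.80 for the 1 lymphocyte marker tested, with none of these called. The part of these cells in the protease differences was not tested, and in bulk RNA fewer cells of a type and less RNA per cell cannot be told apart.

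KO CT27 stood apart among the slices, with 258 FPKM of Timp1, 209 of Mmp7, 346 of Mmp3, 92.4 of Mmp2 and 94.4 of Timp2. Without this library, left out after seeing the data, 9 members were called lower, with Adamts10 and Mmp2 added. With a pseudocount of 0.1 in place of 1, 18 were called, 17 of them lower. The shares of all genes called were not counted for either alternative, so these counts cannot be set against all genes.

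**Figure D3:**
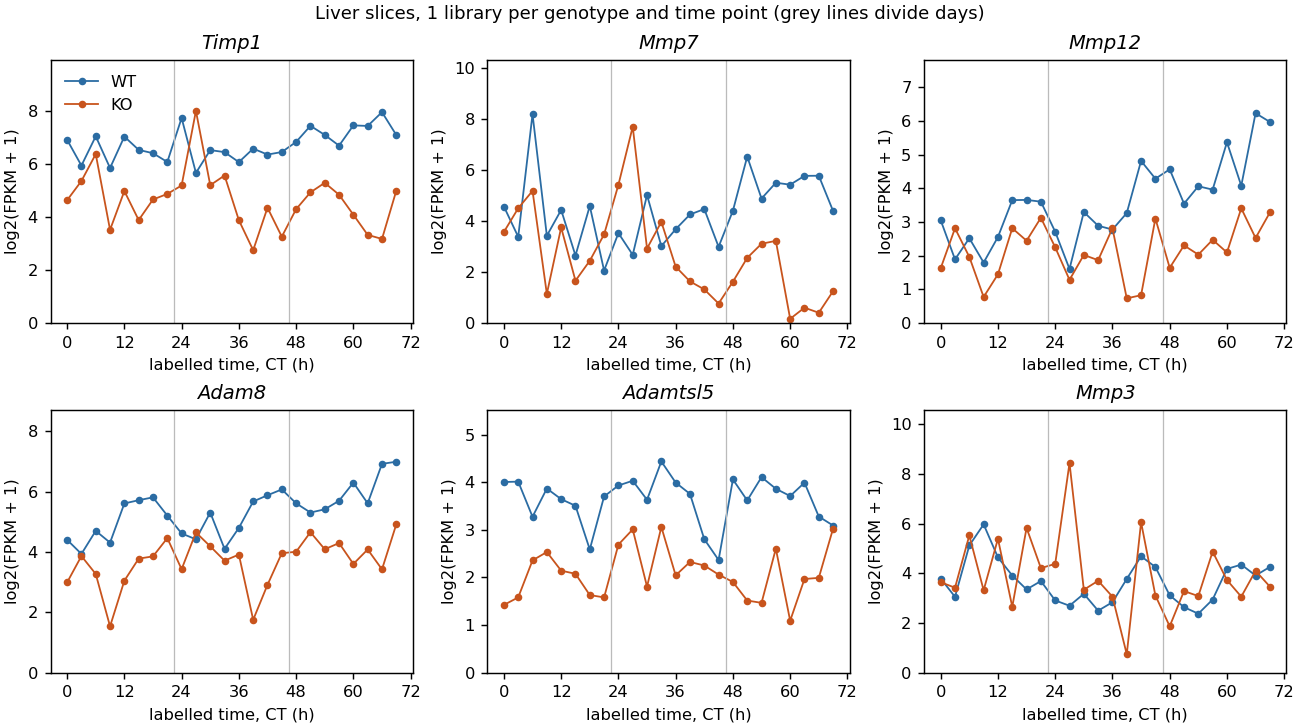
log2(FPKM + 1) of 6 genes against labelled time in h in WT (blue) and KO (orange) liver slices, 1 library per point, with grey lines between days. Timp1, Adam8 and Adamtsl5 are lower in nearly all KO libraries, with the KO library at CT27 high for Timp1, Mmp7 and Mmp3.

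From day 1 to day 3 in WT slices 3 members rose, where 0.843% of genes did, and 0 fell, where 0.994% did, with 18 at an unadjusted p under 0.05. Mmp12 rose from 2.47, 6.08 and 11.6 FPKM to 10.7, 19.2 and 73.8 (1.88 ± 0.341, adjusted p 3.99e-04). Adam23, an ADAM without the zinc motif known from neurons, rose from 1.32, 2.51 and 4.04 to 3.81, 6.77 and 14.1 FPKM (1.17 ± 0.275, adjusted p 0.00442). Adam8 rose from 14.3, 30.5 and 55.3 to 38.7, 49.5 and 127 FPKM (1.02 ± 0.304, adjusted p 0.0232). The day ranges overlapped for all 3 genes. The Adam8 call was lost without the 24 h terms (adjusted p 0.0767) and, by size, without the 6 libraries of low correlation (0.85). The macrophage marker sum had medians of 686, 719 and 1509 FPKM on the 3 WT days, and its part was not tested.

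In KO slices Adam23 alone rose, from 0.683, 1.96 and 7 to 2.09, 5.38 and 10.3 FPKM (1.03 ± 0.275, adjusted p 0.0161), where 0.152% of genes rose. None of the 39 fell, where 1.21% of genes did, and 8 had an unadjusted p under 0.05. Without the 6 libraries the Adam23 change was 0.90, under the limit. The difference between genotypes in the day change was called for 0 members, where 0% of genes were higher and 0.0243% lower, and 10 members had an unadjusted p under 0.05.

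Rhythm calls in slices lay mostly in KO. In WT 1 of 39 was called, where 1.68% of genes were, in KO 17, where 20.6% were, and the difference of waves was called for 1, where 3.18% were. The 17 KO waves peaked between 1.91 and 5.46 h of labelled time, 16 of them between 3 and 6 h, with a median of 3.95 h and amplitudes of 0.267 to 1.43. The lowest p-values belonged to Adamts10 (amplitude 0.70 ± 0.134, adjusted p 0.00128), Mmp11 (1.43 ± 0.279, adjusted p 0.00153), Timp1 (1.02 ± 0.214, adjusted p 0.00285) and Adamts5 (0.56 ± 0.122, adjusted p 0.00402). Without day 2, or without day 3, 0 of the 39 were called in KO, and without the 6 libraries 6 were. Without KO CT27 alone 13 were. KO CT27, which held the highest KO value of Timp1 and Mmp11, falls at 3 h of the second day, and Mmp11 was at 0, 0 and 0.267 FPKM in KO CT09, CT39 and CT42.

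Mmp27 was the member called in WT slices and for the difference of waves. It had 0.322, 1.42 and 4.83 FPKM in WT and 0.0633, 0.527 and 2.76 in KO. Its WT wave had an amplitude of 0.42 ± 0.096 and a peak at 17.3 h (adjusted p 0.0345), its KO wave an amplitude of 0.37 and a peak at 1.91 h, and the difference of waves was 0.71 ± 0.136 (adjusted p 0.0106). The WT call was lost when any of the 3 days was left out (adjusted p 0.0941 to 0.581), and the difference without day 2 (0.319), without day 3 (0.264) and without the 6 libraries (0.0655).

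Of all genes in slices 3.58% were called lower in KO and 1.05% higher. Of 23 activators and controls in slices 4 were lower in KO, among them Serpinb2 at -1.99, the macrophage cathepsin Ctss at -1.85 and Plat at -1.15, and Plg (plasminogen, made by hepatocytes) was higher at 1.66. Bgn, Lum and Nid1 were the 3 of 11 matrix substrates called, all lower. Of 10 AP-1 and ETS factors 0 were called.

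In the short liver course the genotypes were compared over all 4 times and at each, and a difference was called by adjusted p under 0.05 alone. Over the 4 times 3 of 31 members were higher in KO, where 7.42% of 14306 genes were, and 4 lower, where 10.1% were. The median difference was -0.07 over the members and 0.00 over all genes. No member had separate groups over the 12 samples of a genotype, where 0.0839% of all genes did with KO higher and 0.175% with KO lower.

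Mmp9 was higher in KO, while it was lower in KO fibroblasts and at 0.48 in slices (adjusted p 0.0103, under the size limit). The tables were not tested against each other. At T00 its level was 0.291, 0.506 and 0.271 FPKM in the WT samples and 1.04, 0.938 and 1.42 in KO. At T06 it was 0.375, 0.295 and 0.136 in WT and 4.52, 2.44 and 4.49 in KO, and at T12 0.162, 0.671 and 0.489 against 7.06, 11.8 and 6.12. At T24 it was 0.562, 0.629 and 1.18 in WT and 4.87, 6.68 and 7.67 in KO. At each of the 4 times every KO sample lay above every WT sample. The difference was 1.81 ± 0.113 (adjusted p 3.50e-09), with 1.90 at T06 (adjusted p 1.23e-04), 2.66 at T12 (1.00e-06) and 2.05 at T24 (3.56e-05). At T00 it was 0.65 (adjusted p 0.129). Neutrophils carry Mmp9, and the sum of 6 neutrophil markers was 3.57 to 72.2 FPKM in WT (median 10.1) and 2.38 to 32.4 in KO (median 5.01). The part of neutrophils in the Mmp9 difference was not tested.

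The collagenase Mmp13 was also higher in KO, at low levels. At T24 it stood at 0.302, 0.733 and 0.503 FPKM in WT and 1.13, 1.47 and 2.46 in KO, without overlap. The difference was 0.46 ± 0.1 over the times (adjusted p 0.0035) and 0.81 at T24 (adjusted p 0.0114). Mmp9 and Mmp13 averaged under 0.5 FPKM in WT and reached the limit through KO, so their differences follow in part from how they entered. Mmp13 at 0.575 FPKM and Mmp23 at 0.631 were just inside the limit, and Adamtsl5 at 0.469 and Adam32 at 0.436 just outside.

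Adam11, an ADAM without the zinc motif, had 2.36, 2.67 and 2.22 FPKM at T00 in WT and 7.60, 18.9 and 23.3 in KO, without overlap. At T24 it had 1.57, 1.03 and 0.731 against 2.88, 0.534 and 1.17, with overlap. The difference over the times was 1.48 ± 0.221 (adjusted p 1.18e-04), with 2.24 at T00 (adjusted p 0.00441) and 1.82 at T06 (0.0411). The T06 call was lost when any of 5 of the 6 replicate numbers was left out.

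Timp3 was lower in KO. At T00 it had 3.35, 6.84 and 7.10 FPKM in WT and 1.74, 1.11 and 1.48 in KO, and at T06 37.4, 52.6 and 45.8 against 21.9, 17.2 and 17.2. At both times every KO sample was below every WT sample. The same held at T12, with 13.6 to 16.6 FPKM in WT and 7.59 to 11.3 in KO, and at T24 the groups overlapped. The difference was -0.98 ± 0.116 (adjusted p 8.83e-06), with -1.42 at T00 (8.12e-04), -1.22 at T06 (0.00802), -0.71 at T12 (0.131) and -0.58 at T24 (0.0971). The T06 call was lost without WT replicate 2, WT replicate 3 or KO replicate 3 (adjusted p 0.0607 to 0.089). Timp1 and Timp2 each had a difference of -0.16 (adjusted p 0.683 and 0.649), which became 0.074 and 0.075 without WT replicate 2.

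The 3 other calls over the times were lower in KO and smaller. Mmp15, a membrane-type enzyme, was at -0.47 (adjusted p 0.00473), Adamtsl2 at -0.61 (0.0214) and Adamts10 at -0.37 (0.0448). Adamtsl2 and Adamts10 lost the call in 5 of the 6 fits that left out a replicate number. With 1 mean per genotype and number, 3 against 3, Mmp9, Adam11 and Timp3 were the 3 members called, and Mmp13 (adjusted p 0.106) and Mmp15 (0.117) were not.

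By time, T00 gave 1 member higher (2.54% of genes) and 2 lower (1.95%), which were Adam11, Timp3 and Mmp15. The Mmp15 call at T00 (-0.90, adjusted p 0.0170) was lost without WT replicate 3, KO replicate 1 or KO replicate 3 (adjusted p 0.0517 to 0.116). T06 gave 2 higher (0.937%) and 1 lower (0.685%), which were Mmp9, Adam11 and Timp3. T12 gave Mmp9 alone as 1 higher (0.93%) and 0 lower (1.29%), with 8 members at an unadjusted p under 0.05 in limma. T24 gave 3 higher (7.3%) and 5 lower (9.28%).

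At T24 the proteoglycanase Adamts4 had 9.37, 10.8 and 11.5 FPKM in WT and 4.83, 1.78 and 1.95 in KO (-1.67, adjusted p 5.25e-04). Mmp14 had 40.9, 51.5 and 49.2 against 34.8, 18.1 and 21.9 (-0.94, adjusted p 0.00393), and Adamts1 had 21.7, 32.5 and 30.6 against 18.4, 13.9 and 12.2 (-0.88, adjusted p 0.00636). All 3 had every KO sample below every WT sample at that time. Mmp12 went the other way, with 5.62, 3.09 and 5.11 in WT and 15.0, 11.3 and 11.2 in KO (1.29, adjusted p 0.0279). Adamtsl4 at -1.27 (adjusted p 0.0351) and Adam9 at -0.38 (0.0337) were the other lower calls. Mmp12, Adamtsl4 and Adam9 each lost the call in at least 4 of the 6 fits that left out a replicate number, Mmp13 without WT replicate 1 (adjusted p 0.0894) or WT replicate 3 (0.0652), and Adamts1 without WT replicate 3 (0.0508). The macrophage marker sum at T24 was 234 to 403 FPKM in WT and 183 to 196 in KO, and the part of macrophages in these differences was not tested.

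**Figure D4:**
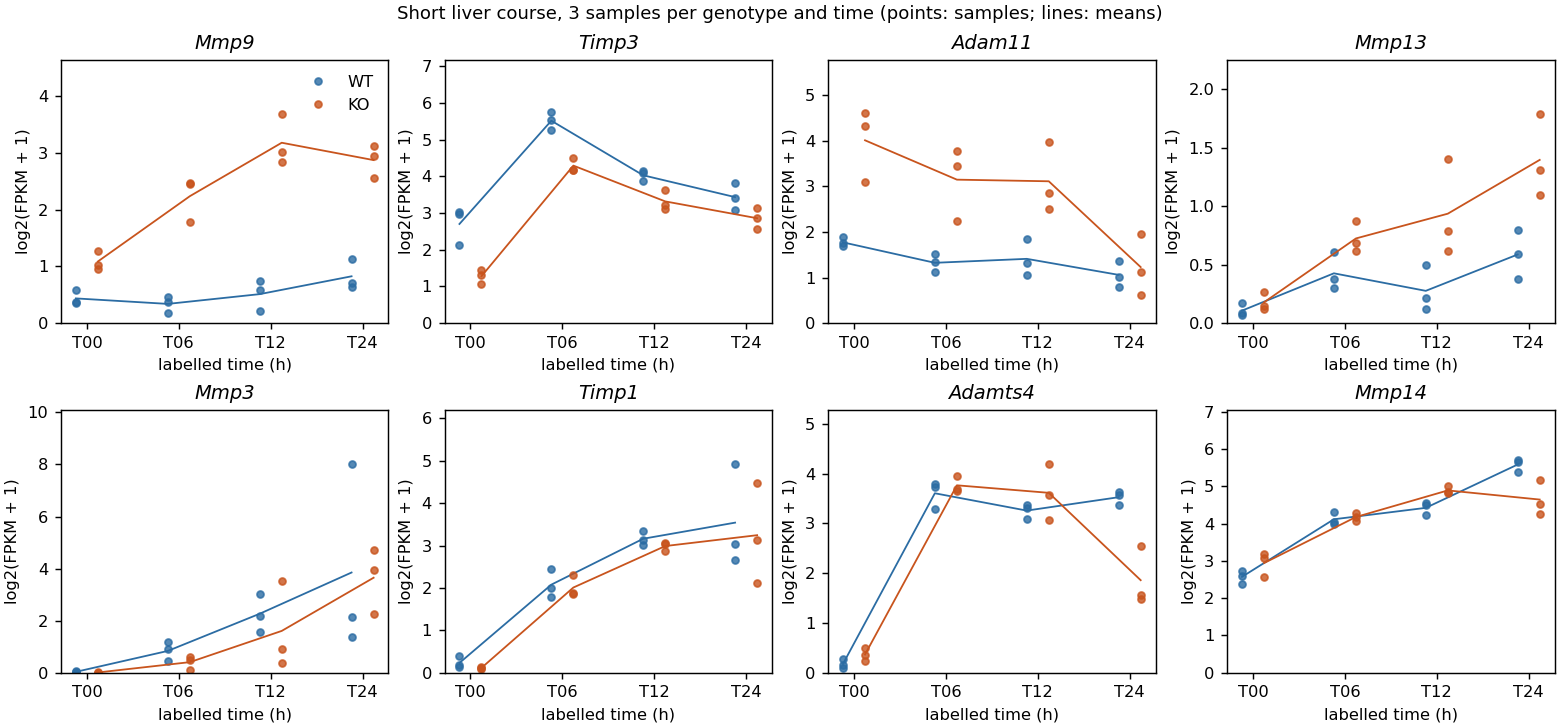
log2(FPKM + 1) of 8 genes in the short liver course against labelled time, with 3 WT (blue) and 3 KO (orange) samples as points and lines through their means. Mmp9 is higher in KO at all times, Timp3 is lower in all KO samples at T00, T06 and T12, and Adamts4 and Mmp14 are lower in KO at T24.

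The genotypes differed in their time course for 3 of 31 members, where 1.71% of genes did, by limma's F test of genotype by time. The difference of changes, KO minus WT, was 2.01 ± 0.320 at T12 for Mmp9 (adjusted p 0.0120), -1.31 ± 0.272 at T24 for Mmp14 (0.0243) and -1.86 ± 0.359 at T24 for Adamts4 (0.0112). Leaving out a replicate number gave between 0 and 5 calls. None of these 3 genes was called without any 1 of the WT replicates or without KO replicate 3, where their adjusted p ran from 0.06 to 0.267. Without KO replicate 2 Mmp14 was at 0.0989, and with a pseudocount of 0.1 Mmp9 was at 0.069.

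Most members changed with time, as did most of all genes. In WT 24 of 31 changed from T00, where 61% of genes did, and in KO 22, where 68.9% did. At their largest change 22 of the 24 were higher and 2 lower in WT, and 19 of the 22 were higher and 3 lower in KO. This split was not counted over all genes. Members entered by their mean over all samples, and several were near 0 at T00 and reached the limit through later times. Among these the WT means at T00 were 0.0238 FPKM for Mmp3, 0.132 for Adamts4 and 0.177 for Timp1. The rise of such genes follows in part from how they entered. The median largest change was 1.37 in WT and 1.19 in KO over the members, and 0.00 and -0.08 over all genes. In both genotypes 19 were called.

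Mmp3 had the largest fitted rise in WT, with widely spread samples. It was at 0.0241, 0.0355 and 0.0117 FPKM at T00 and 1.61, 258 and 3.42 at T24 in WT, and at 0, 0.0207 and 0 and then 25.4, 3.81 and 14.6 in KO. WT replicate 2 at T24 was far above the other 2. The change was 3.82 ± 1.16 (adjusted p 0.0348) in WT and 3.64 ± 1.16 (0.0360) in KO, and neither call was stable. The WT call was lost without WT replicate 2, where the largest change was 2.58, at T12 and not T24 (adjusted p 0.0811). It was also lost without WT replicate 3, KO replicate 1 or KO replicate 3 (0.0586 to 0.0781), without a filter (0.0715) and with the replicate block within genotype (0.0523). The KO call was lost without KO replicate 1 (0.21), KO replicate 3 (0.205) or WT replicate 3 (0.0573), without a filter (0.0715) and with the block (0.0546). Without the T24 sample of WT replicate 2 alone, left out after seeing the data, the largest WT change was 2.23, at T12 and not T24 (adjusted p 0.0300).

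Adamts4 and Timp1 also rose in both genotypes. Adamts4 rose from 0.119, 0.0608 and 0.216 FPKM at T00 to 8.79, 12.3 and 12.8 at T06 in WT, and from 0.277, 0.181 and 0.418 to 11.9, 11.5 and 14.6 in KO (3.43 and 3.40). Timp1 rose from 0.307, 0.136 and 0.0891 to 7.16, 29.4 and 5.33 at T24 in WT (3.31, adjusted p 4.81e-05), and from 0.0766, 0.105 and 0.0671 to 21.2, 3.35 and 7.81 in KO (3.13, adjusted p 5.21e-05). For both genes all later samples named lay above all T00 samples of their genotype. WT replicate 2 at T24, far out for Mmp3, was also well above the other WT samples of that time for Timp1, Timp2 (16.9 against 3.78 and 2.99 FPKM) and Mmp2 (11.1 against 0.527 and 0.864). Without that sample, left out after seeing the data, the largest Timp1 change in WT was 2.93, at T12, and was still called.

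Mmp7 rose by 3.47 in WT and 3.32 in KO at T12, when it stood at 16.8, 7.96 and 16.2 FPKM in WT and 2.74, 25.8 and 8.93 in KO, from under 1 FPKM in all T00 samples. Mmp12 rose by 3.67 in KO at T24, the largest fitted rise in that genotype. Adamts1 rose by 3.19 in WT at T24 and Mmp14 by 3.01, from 5.63, 4.25 and 5.05 FPKM at T00 in WT. Timp3 rose by 2.82 in WT and 3.02 in KO at T06 and was lower again at T12 and T24 in all 6 samples of each time than in any T06 sample of its genotype.

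Few members fell. Mmp15 fell in WT from 10.6, 9.26 and 8.31 FPKM at T00 to 1.79, 0.377 and 1.22 at T24 (-2.34, adjusted p 2.80e-07), and by 1.87 in KO. Mmp19 fell by 0.71 in WT and by 1.82 in KO, from 17.7, 20.6 and 25.2 to 6.37, 3.87 and 5.73 FPKM. Adam11 fell by 2.78 in KO (adjusted p 1.72e-04), and its WT change of -0.71 was not called (adjusted p 0.52). The difference between the genotypes in the Adam11 change was not called either (adjusted p 0.189).

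**Figure D5:**
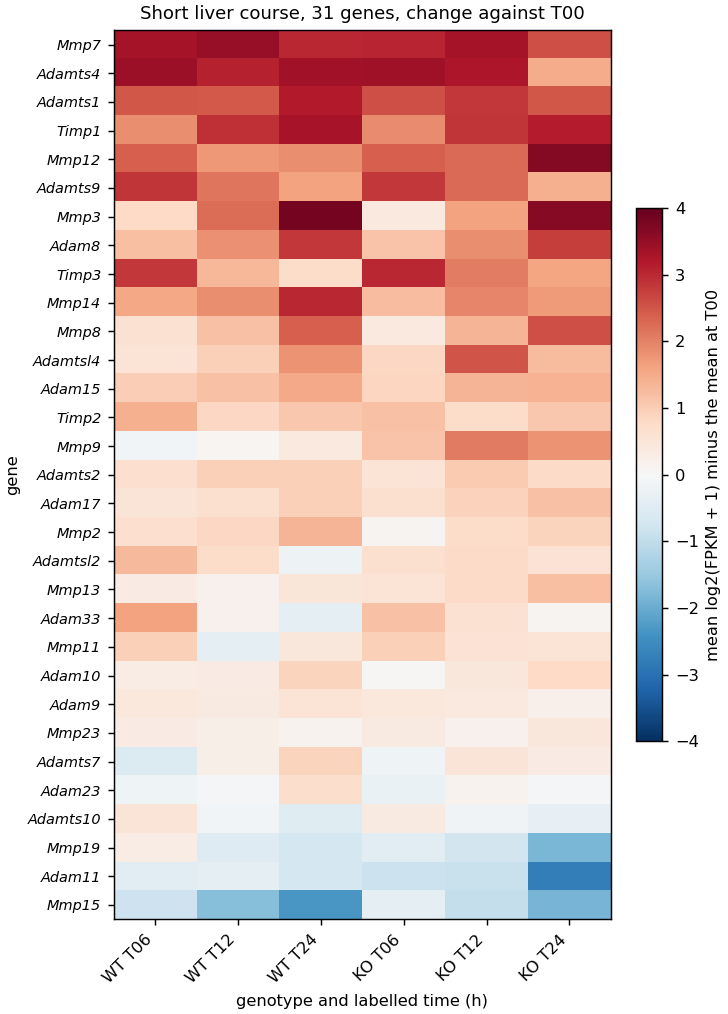
Mean log2(FPKM + 1) at T06, T12 and T24 minus the mean at T00 for the 31 genes of the short liver course, in WT and KO, with red for higher and blue for lower. Mmp7, Adamts4, Adamts1 and Timp1 are red in all 6 columns, and Mmp15, Adam11 and Mmp19 at the bottom are mostly blue.

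The short course also moved cell markers. From T00 to T06 the median sum of biliary markers went from 38.6 to 350.4 FPKM in WT and from 39.8 to 352 in KO, and that of stellate and smooth muscle markers from 13.6 to 53 and from 16.8 to 53.2. Endothelial markers went from 104 to 248 in WT and from 79.6 to 220.3 in KO, fibroblast markers from 63.04 to 134 and from 68.35 to 110.5, and macrophage and Kupffer markers from 194 to 398 and from 129.7 to 221. Neutrophil, keratinocyte and lymphocyte sums were also higher at T06 in both genotypes, and the hepatocyte sum went from 18760 to 29140 in WT and from 20310 to 13920 in KO. Alb, a part of the hepatocyte sum, was listed at 0 in all 3 WT samples at T00, but not in all WT samples at T06 or all KO samples at either time. The WT hepatocyte sums at T00 and T06 therefore do not rest on the same genes, and their direction cannot be set against that of KO. Between the genotypes 5 of 10 macrophage, 2 of 8 hepatocyte and 2 of 8 endothelial markers were lower in KO, and 1 of 8 stellate and smooth muscle markers was higher. Their part in the protease changes was not tested. The highest mean levels were Mmp14 at 20.8 FPKM, Adam9 at 19.2 and Adamts1 at 14.4.

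Of 23 activators and controls 19 changed with time in each genotype, where 61% of all genes did in WT and 68.9% in KO. The largest change was upward for 11 and downward for 8, among them the urokinase receptor Plaur at 4.42 in WT and 6.04 in KO. All 10 AP-1 and ETS factors rose in both genotypes, with Fosl1 at 5.28 and 6.95 and Atf3 at 3.94 and 4.17. Of 10 matrix substrates 6 changed in WT and 7 in KO, near the shares of all genes. Directions were not counted over all genes. Between the genotypes 4 of 23 activators and controls were higher and 2 lower in KO, where 7.42% and 10.1% of all genes were. None of the 10 matrix substrates was called, and Atf3, Junb and Jund were lower.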

How the data were processed

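Poly(A) RNA was sequenced as single 50 base reads, per the labels. TopHat2 2.1.0, Cuffdiff and the build GRCm38 are named in the submitters' processing notes, and the authors deposited FPKM per gene in 3 tables. The annotation release, strand setting and scaling between libraries remain not given in the sources used here. Of the 336 labelled runs, 3 belong to each long-course library and 2 to each short-course library, with a single FPKM column per library, and 0 columns were left unused. The study's text names 3 samples at a time point, whereas each long table has 1 value. A run with conflicting time labels was grouped by its title.

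Genes averaging at least 0.5 FPKM were analysed on the scale of log2(FPKM + 1) with limma 3.58.1 in R 4.3.3 (variance trend), and p-values were adjusted by Benjamini-Hochberg over all genes tested. In fibroblasts 118 genes marked FAIL or HIDATA, no protease or inhibitor among them, were left out. Long courses were fitted with genotype, 24 h cosine and sine terms and a linear trend per genotype (days as factors for day 3 against day 1). The short course was fitted with 1 mean per genotype and time. Time and its interaction with genotype were tested by F tests, and the change printed is the one of greatest size relative to T00. The difference of waves is the amplitude left after subtracting the WT wave. The tests were checked on simulated data with independent noise in each library. That check cannot show how dependence between successive time points or outlying libraries affects the calls. Depth, and so the counting error of each value, is unknown.

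The protease genes and the lists of activators, substrates, factors and cell markers were chosen with earlier results of these data known. Named genes are the Timp genes at 0.5 FPKM or more, up to 12 called members by size per genotype comparison, 6 per day or time comparison, 4 per rhythm comparison by p, and the 3 highest levels per table. Members named for other reasons were chosen after their values were seen. Alternatives were other pseudocounts, filters, scalings, model terms, size limits and left-out days, libraries or replicates. Replicate numbers of the short course were checked as pairs: median correlations of residuals were 0.0133 to 0.0678 within a genotype and number and -0.0367 to 0.000516 between WT and KO of 1 number, so they were not used as pairs. These correlations cannot show whether a number stands for 1 animal. Gene coordinates are from GENCODE M21 and promoter windows from RefSeq (GRCm38.p6). One gene of the activator and control list is counted but not reported here by name.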

Additional observations from a re-analysis of the deposited data

Results flagged for a closer look

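The 4 results here stood out as effects that differed between the genotypes by the test of the difference itself. In liver slices the 24 h wave of Mmp27 differed by an amplitude of 0.713 (log2). In the short liver course the change from T00 differed, KO minus WT, by 2.01 for Mmp9 at T12, by -1.31 for Mmp14 at T24 and by -1.86 for Adamts4 at T24. In the short course the 3 samples per genotype and time were too few for a test of single outlying samples. None of the 4 calls was stable. The Mmp27 call was lost without day 2, without day 3 and without the 6 low-correlation libraries. The 3 short-course calls were lost when any single WT replicate or KO replicate 3 was left out.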

How the results depend on the processing

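Counts are of called members, and the shares of all genes at the settings of this section were not counted. Without a size limit, fibroblasts gave 41 for genotype and 23, 32 and 25 for day 3 against day 1 in WT, KO and their difference, and slices gave 33, 6 for the WT days and 2 for the KO days. A size limit of 2 gave 4 for the fibroblast and 1 for the slice genotype, and a limit of 1 gave 2 for the short liver genotype. A pseudocount of 0.1 gave 1 and 2 for the fibroblast KO days and their difference, and in slices 18 for genotype, 5 and 3 for the WT and KO days and 0 for the WT rhythm. With day as a factor the fibroblast rhythms gave 6, 5 and 2 (WT, KO, difference), and the slice rhythms 6 in WT and 7 for the difference. Without a linear trend the slice rhythms gave 3 in WT and 6 for the difference. The slice WT rhythm gave 0 without a filter, after rescaling and without day 1, day 2 or day 3, and the KO rhythm 0 without day 2 or day 3. The slice rhythm difference gave 3 at a mean of at least 1 FPKM, 5 without day 1 and 0 without day 2 or day 3. Without the 6 low-correlation libraries the slice rhythms gave 2, 6 and 0. At a mean of at least 1 FPKM, T12 of the short course gave 2, and with 1 mean per number its genotype gave 3.

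Leaving out each replicate number gave 4 to 7 for the short liver genotype, 1 to 3 at T06, 1 to 2 at T12, 4 to 9 at T24 and 0 to 5 for genotype by time. The labels do not say whether the numbers pair the samples. With the replicate block 7 members were called for genotype, the same 7, and within genotype 4 for genotype by time. Estimates that changed sign were those of Timp1 in fibroblasts (0.040 after rescaling, 0.22 without day 1) and of Timp1 and Timp2 in the short course, which ran from -0.34 to 0.074 and from -0.32 to 0.075 when a replicate number was left out and were 0.0107 and 0.011 without the T24 library of WT replicate 2, an alternative chosen after seeing the data. The other 195 recomputed counts were within 1.5 times the main ones. The causes of these shifts were not tested. Unknown depth limits what low values can show.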

Other observations

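Of the 84 genes, 35 had a mean below 0.5 FPKM over the libraries of each of the 3 tables and took no part in the comparisons. Listed at 0 in every library were 7 of the 84 in fibroblasts, 9 in slices and 8 in the short liver course.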
